A study of Mus musculus with 27 samples.

Results

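The 10 genes described here code for negative regulators of tumour necrosis factor (TNF) signalling, for TNF receptor-associated factors (TRAFs) and for proteins first found as TNF-induced. They were chosen by name, all 10 were found by their Ensembl identifiers, and they are 10 of the 22524 genes counted in each library. The brakes are Tnfaip3 (the protein A20), its binding partners Tnip1 and Tnip2, and Cyld. The TRAFs are Traf1, Traf2, Traf3 and Traf6, and the TNF-induced genes are Tnfaip2 and Tnfaip8.

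RNA was sequenced from 27 libraries. Organoids grown from jejunal crypts of 9 wild-type male C57BL/6 mice, young adults and cohoused littermates within each facility, gave 18 of them: 3 mice each came from the facilities SR and SE, which keep mice under specific pathogen-free (SPF) conditions, and from the germ-free facility GF. Every organoid culture, expanded over several passages before harvest, gave 1 library labelled untreated, which per the study's methods had only its medium exchanged, and 1 labelled TNF-treated (5 ng/ml for 8 h). The m-ICc12 cells, an immortalised epithelial line from the mouse small intestine, gave 3 libraries with each label, and mouse embryonic fibroblasts (MEFs) gave 3 libraries, all labelled untreated. Because the mice of a facility were littermates, facility and family cannot be told apart. Nothing states that the 3 m-ICc12 samples or the 3 MEF samples were started separately, so p-values that rest on them measure the spread between these samples, which may be technical.

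In all 12 cultures with a library of each label, the name under which the data were deposited gives the opposite treatment from the sample's label. These are 9 organoid cultures and 3 m-ICc12 samples, which are paired by their number only and are called cultures for short. The labels are followed here, each group is called labelled untreated or labelled TNF-treated, and a difference between labels is always labelled untreated minus labelled TNF-treated. Tnfaip3 is known as a gene that TNF switches on, and it was higher in the library labelled untreated in all 12 cultures, so the printed directions run against that of a known TNF target. The study lists Tnfaip3, Nfkb2 and Relb as previously described TNF targets among the transcripts that changed with TNF in organoids. It also reports more Nfkb2 protein after TNF. Here the RNA of Nfkb2 and Relb was higher in organoids labelled untreated as well. Which of the names is right was not tested, and each difference between labels changes sign if the labels are exchanged. Comparisons between cell types use libraries labelled untreated, and values with the other label are given where they differ. All MEF libraries are labelled untreated. If the labels of the other cells are exchanged, the main comparisons with MEFs set TNF-treated cells against untreated MEFs.

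The libraries held 6071103 to 43843615 counts. The m-ICc12 culture M1 labelled TNF-treated was the smallest and every other library had at least 11440041. In that library 13.5% of the counts fell on Lars2, a mitochondrial leucyl-tRNA synthetase gene, and in M3 labelled TNF-treated 4.44% did, against at most 0.688% elsewhere. All 12 epithelial markers had at least 10 counts in every organoid library and summed to 5822 to 7686 CPM (counts scaled to a common library size, with TMM factors), with fibroblast markers at 14.96 to 47.9 CPM. The m-ICc12 libraries held 2056 to 2826 CPM of epithelial and 3136 to 4436 CPM of fibroblast markers, and both lists were uneven there. Epcam, an epithelial adhesion molecule, was at 2.07 to 7.14 CPM against 881 to 1138 CPM in organoids. The keratin gene Krt20 was at 480 to 715 CPM against 77.8 to 324 CPM in organoids, and Krt18 at 382 to 635 CPM against 364 to 740 CPM. Of the fibroblast markers, Vim was at 1847 to 3007 CPM in m-ICc12 cells, but Col1a1 at 0.762 to 7.49 CPM against 1804 to 2410 CPM in MEFs. The 10 leukocyte markers summed to 75.0 to 144 CPM in m-ICc12 cells, where Csf1r alone was at 64.6 to 138 CPM. Their sum was 4.03 to 19.9 CPM in organoids and 1.83 to 3.27 CPM in MEFs. MEFs held 10434 to 13470 CPM of fibroblast markers, and 7 of the 10 had at least 10 counts in every MEF library. Thy1 was listed at 0 in all libraries, and in MEFs Dcn was at most 0.227 CPM and Pdgfra at most 1.57 CPM.

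When TNF binds its receptor TNFR1, TRADD, RIPK1, TRAF2 and the cIAP ubiquitin ligases gather on the receptor, and the ubiquitin chains built there recruit the kinases that release NF-kB. NF-kB then switches on inflammatory genes together with its own brakes. A20 and CYLD remove or edit ubiquitin chains, and A20 is known to protect the intestinal epithelium from TNF-induced cell death. TRAF2 and TRAF3 also hold down NIK, the kinase that starts the non-canonical NF-kB pathway, while TRAF6 acts mainly below interleukin-1 and Toll-like receptors.

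The promoters of 9 of the 10 genes were in the RefSeq promoter table used here (GRCm38.p6, 250 bases before to 50 bases after each start). They are shown because several of these genes differed together between the labels, and because NF-kB and AP-1 are the best known factors downstream of TNF. An NF-kB motif on either strand was found in the windows of 5 genes: Tnfaip3, Tnip1, Traf3, Cyld and Tnfaip2. Of all 32851 promoters of this length, 8.46% held it. The AP-1 motif (TGACTCA or TGAGTCA, which are the same site on opposite strands) was found in 1 of the 9, Tnfaip3, and in 5.2% of all promoters. Of the 5 windows below, those of Tnfaip3, Tnip1 and Traf3 belong to genes that were called different between the labels in organoids, while Cyld held an NF-kB match and Traf6 held neither motif, and neither of these was called. Tnfaip2 also held a match and was not called, and Tnfaip8, which was called, is the gene without an entry. Capitals mark motif matches: in Tnfaip3 first the AP-1 match and then the NF-kB matches, elsewhere NF-kB matches only.
Tnfaip3: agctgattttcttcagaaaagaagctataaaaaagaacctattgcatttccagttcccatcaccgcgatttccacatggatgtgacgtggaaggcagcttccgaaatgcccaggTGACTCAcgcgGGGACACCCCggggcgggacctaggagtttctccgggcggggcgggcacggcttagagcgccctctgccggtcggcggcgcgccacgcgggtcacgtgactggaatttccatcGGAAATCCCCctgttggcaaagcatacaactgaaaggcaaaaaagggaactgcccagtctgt
Tnip1: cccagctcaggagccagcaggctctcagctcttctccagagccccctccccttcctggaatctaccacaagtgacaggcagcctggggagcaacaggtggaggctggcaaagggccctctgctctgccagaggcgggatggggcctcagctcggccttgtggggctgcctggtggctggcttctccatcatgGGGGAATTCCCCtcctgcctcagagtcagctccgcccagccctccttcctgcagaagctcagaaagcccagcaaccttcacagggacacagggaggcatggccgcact
Traf3: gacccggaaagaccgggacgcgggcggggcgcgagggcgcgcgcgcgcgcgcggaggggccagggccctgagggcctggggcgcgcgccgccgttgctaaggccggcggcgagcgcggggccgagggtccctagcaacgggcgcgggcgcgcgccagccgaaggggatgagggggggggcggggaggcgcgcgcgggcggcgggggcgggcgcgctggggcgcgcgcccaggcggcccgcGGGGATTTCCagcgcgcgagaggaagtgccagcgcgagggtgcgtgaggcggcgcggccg
Cyld: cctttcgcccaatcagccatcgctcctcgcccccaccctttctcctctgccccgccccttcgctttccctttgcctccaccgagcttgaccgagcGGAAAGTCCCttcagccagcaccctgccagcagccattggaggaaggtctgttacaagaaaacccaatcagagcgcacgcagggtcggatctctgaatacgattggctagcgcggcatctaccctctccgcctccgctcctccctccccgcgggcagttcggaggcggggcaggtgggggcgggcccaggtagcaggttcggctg
Traf6: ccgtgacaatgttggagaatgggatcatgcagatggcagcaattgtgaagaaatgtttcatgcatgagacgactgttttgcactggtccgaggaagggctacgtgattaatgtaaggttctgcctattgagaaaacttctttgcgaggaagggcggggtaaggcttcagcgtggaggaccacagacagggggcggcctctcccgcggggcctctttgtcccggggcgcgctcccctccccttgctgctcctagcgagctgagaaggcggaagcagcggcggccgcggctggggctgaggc

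The Tnfaip3 window is chr10:19015361-19015660 on the minus strand, and counted from the start site its NF-kB matches began at −125 and −12 and its AP-1 match at −136. RefSeq gives Tnfaip3 a second start site further downstream, whose window held neither motif. The Tnip1 window is chr11:54962891-54963190 on the minus strand, where 3 overlapping NF-kB matches began at −58, −57 and −56. The Traf3 window is chr12:111166120-111166419 on the plus strand, with 1 match at −10, and the Traf6 window is chr2:101678170-101678469 on the plus strand. The Cyld window is chr8:88696778-88697077 on the plus strand with its match at −155, and the match in Tnfaip2 began at −24. A match is a stretch of letters in the reference and not a measured binding site.

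**Figure D1:**
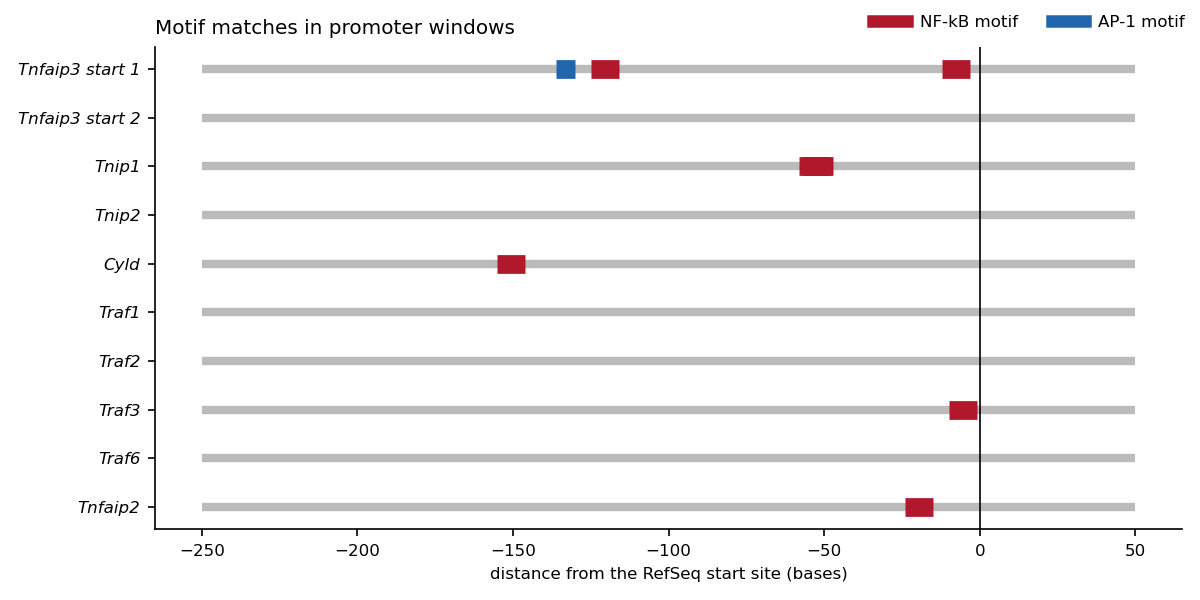
Motif matches in the promoter windows of 9 genes, by distance in bases from the RefSeq start site (vertical line). Grey bars are the windows, red marks are NF-kB matches and blue marks are AP-1 matches; Tnfaip3 has 2 start sites and only its first window holds matches.

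In organoids, Tnfaip3 differed most between the labels among the 9 genes tested. It was 2.90-fold higher in libraries labelled untreated than in those labelled TNF-treated, by the ratio of mean CPM, and Tnfaip8 (2.08-fold), Tnip1 (1.93-fold) and Traf3 (1.48-fold) were also called higher. Of the 10 genes 9 passed the filter on low counts, 4 of these were called and all 4 were higher in libraries labelled untreated. A call here is an adjusted p under 0.05 in edgeR's quasi-likelihood test over all 12104 genes tested, of which 1.39% were called in either direction and 1.26% higher in libraries labelled untreated. The median log2 difference was 0.57 over the 9 genes tested and 0.00031 over all genes tested. In bulk libraries such as these, fewer cells of a type and less RNA per cell cannot be told apart.

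Tnfaip3 (ENSMUSG00000019850, chr10:19000910-19015657 on GRCm38) is both a target of NF-kB and its brake. In organoids labelled untreated it lay between 46.7 and 62.2 CPM with a median of 50.5, and in those labelled TNF-treated between 12.3 and 22.3 CPM with a median of 18.2 (n = 9 each). The groups did not overlap and all 9 cultures were higher in the library labelled untreated, by 1.13 to 2.14 on the log2 scale. The fitted log2 difference was 1.54 (SE 0.12, edgeR adjusted p = 3.5e-09). Non-overlapping groups with the higher values in libraries labelled untreated occurred in 0.463% of all genes tested.

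Tnip1 (ENSMUSG00000020400, chr11:54910785-54962917) codes for ABIN1, which binds ubiquitin chains and brings A20 to them. It lay between 62.6 and 111 CPM with a median of 88.7 in organoids labelled untreated, and between 37.3 and 49.98 CPM with a median of 45.1 in those labelled TNF-treated. These groups did not overlap either, and all 9 cultures had the same sign, with differences of 0.32 to 1.45 on the log2 scale. The fitted log2 difference was 0.95 (SE 0.10, edgeR adjusted p = 8.6e-07).

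Tnip2 (ENSMUSG00000059866, chr5:34496087-34513991), a relative of Tnip1 whose protein also binds A20, was low in CPM and variable. Its CPM ranged from 7.17 to 21.7 with a median of 13.6 in organoids labelled untreated and from 4.71 to 15.8 with a median of 9.67 in those labelled TNF-treated, so the groups overlapped. The log2 difference of 0.39 (95% interval −0.10 to 0.88) was not called (edgeR adjusted p = 0.736). Cyld (ENSMUSG00000036712, chr8:88697028-88751945), a deubiquitinase that acts beside A20, ranged from 37.5 to 71.5 CPM (median 50.7) with the label untreated and from 24.4 to 51.4 CPM (median 41.9) with the label TNF-treated. It was higher in libraries labelled untreated in 7 of 9 cultures, and its log2 difference of 0.43 (95% interval 0.14 to 0.72) was not called (edgeR adjusted p = 0.211).

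Among the TRAFs, Traf3 was the member called. Traf3 (ENSMUSG00000021277, chr12:111166370-111267153) overlaps 4930595D18Rik on the opposite strand, and no library had a count for that gene. Traf3 ranged from 34.2 to 60.0 CPM with a median of 46.9 in organoids labelled untreated and from 25.6 to 38.8 CPM with a median of 31.0 in those labelled TNF-treated. The groups overlapped, but within each of the 9 cultures the library labelled untreated was higher, which held for 1.87% of all genes tested. The fitted log2 difference was 0.57 (SE 0.12, edgeR adjusted p = 0.0066).

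Traf2 (ENSMUSG00000026942, chr2:25517982-25546940), the TRAF of the TNFR1 complex, ranged from 29.7 to 70.5 CPM (median 51.5) with the label untreated and from 25.8 to 47.7 CPM (median 37.4) with the label TNF-treated. It was higher in libraries labelled untreated in 6 of 9 cultures, and the log2 difference of 0.41 (95% interval 0.12 to 0.71) was not called (edgeR adjusted p = 0.267). Traf6 (ENSMUSG00000027164, chr2:101678429-101701669) had the opposite sign from the others, with 40.1 to 65.2 CPM (median 46.4) against 47.2 to 64.6 CPM (median 58.4). Its log2 difference of −0.15 (95% interval −0.37 to 0.06) was not called (edgeR adjusted p = 0.781), and 7 of 9 cultures were lower in the library labelled untreated.

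Traf1 (ENSMUSG00000026875, chr2:34941750-34961772), which lacks the RING domain of the other TRAFs and is known as an NF-kB target in lymphocytes, was listed at 0 in all 18 organoid libraries and was not tested. A count of 0 allows a level of up to 0.0844 to 0.272 CPM, depending on the library (3 counts each, counting error only). A 0 in these data may not always be a true 0: of the genes with a median above 100 counts over the 18 organoid libraries, 17 were listed at 0 in at least 1 of these libraries.

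Of the TNF-induced genes Tnfaip8 was called and Tnfaip2 was not. Tnfaip8 (ENSMUSG00000062210), whose protein carries phosphoinositides and has been linked to cell survival, ranged from 9.53 to 23.6 CPM (median 11.9) in organoids labelled untreated and from 3.80 to 10.6 CPM (median 5.96) in those labelled TNF-treated. The groups overlapped slightly, and all 9 cultures were higher in the library labelled untreated, by 0.08 to 2.22 on the log2 scale. The fitted log2 difference was 1.06 (SE 0.24, edgeR adjusted p = 0.0134). The call was lost without culture Z910 (0.96, edgeR adjusted p = 0.0721) and without culture Z919 (0.87, edgeR adjusted p = 0.0808). Tnfaip2 (ENSMUSG00000021281, chr12:111442469-111455018), known for its part in membrane protrusions, was near the bottom of the measured range, at 0.399 to 5.96 CPM (median 2.29) against 0.399 to 3.45 CPM (median 1.54). Its cultures differed in sign, 5 up and 4 down, and the log2 difference of 0.60 (95% interval −0.61 to 1.81) was not called (edgeR adjusted p = 0.892).

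**Figure D2:**
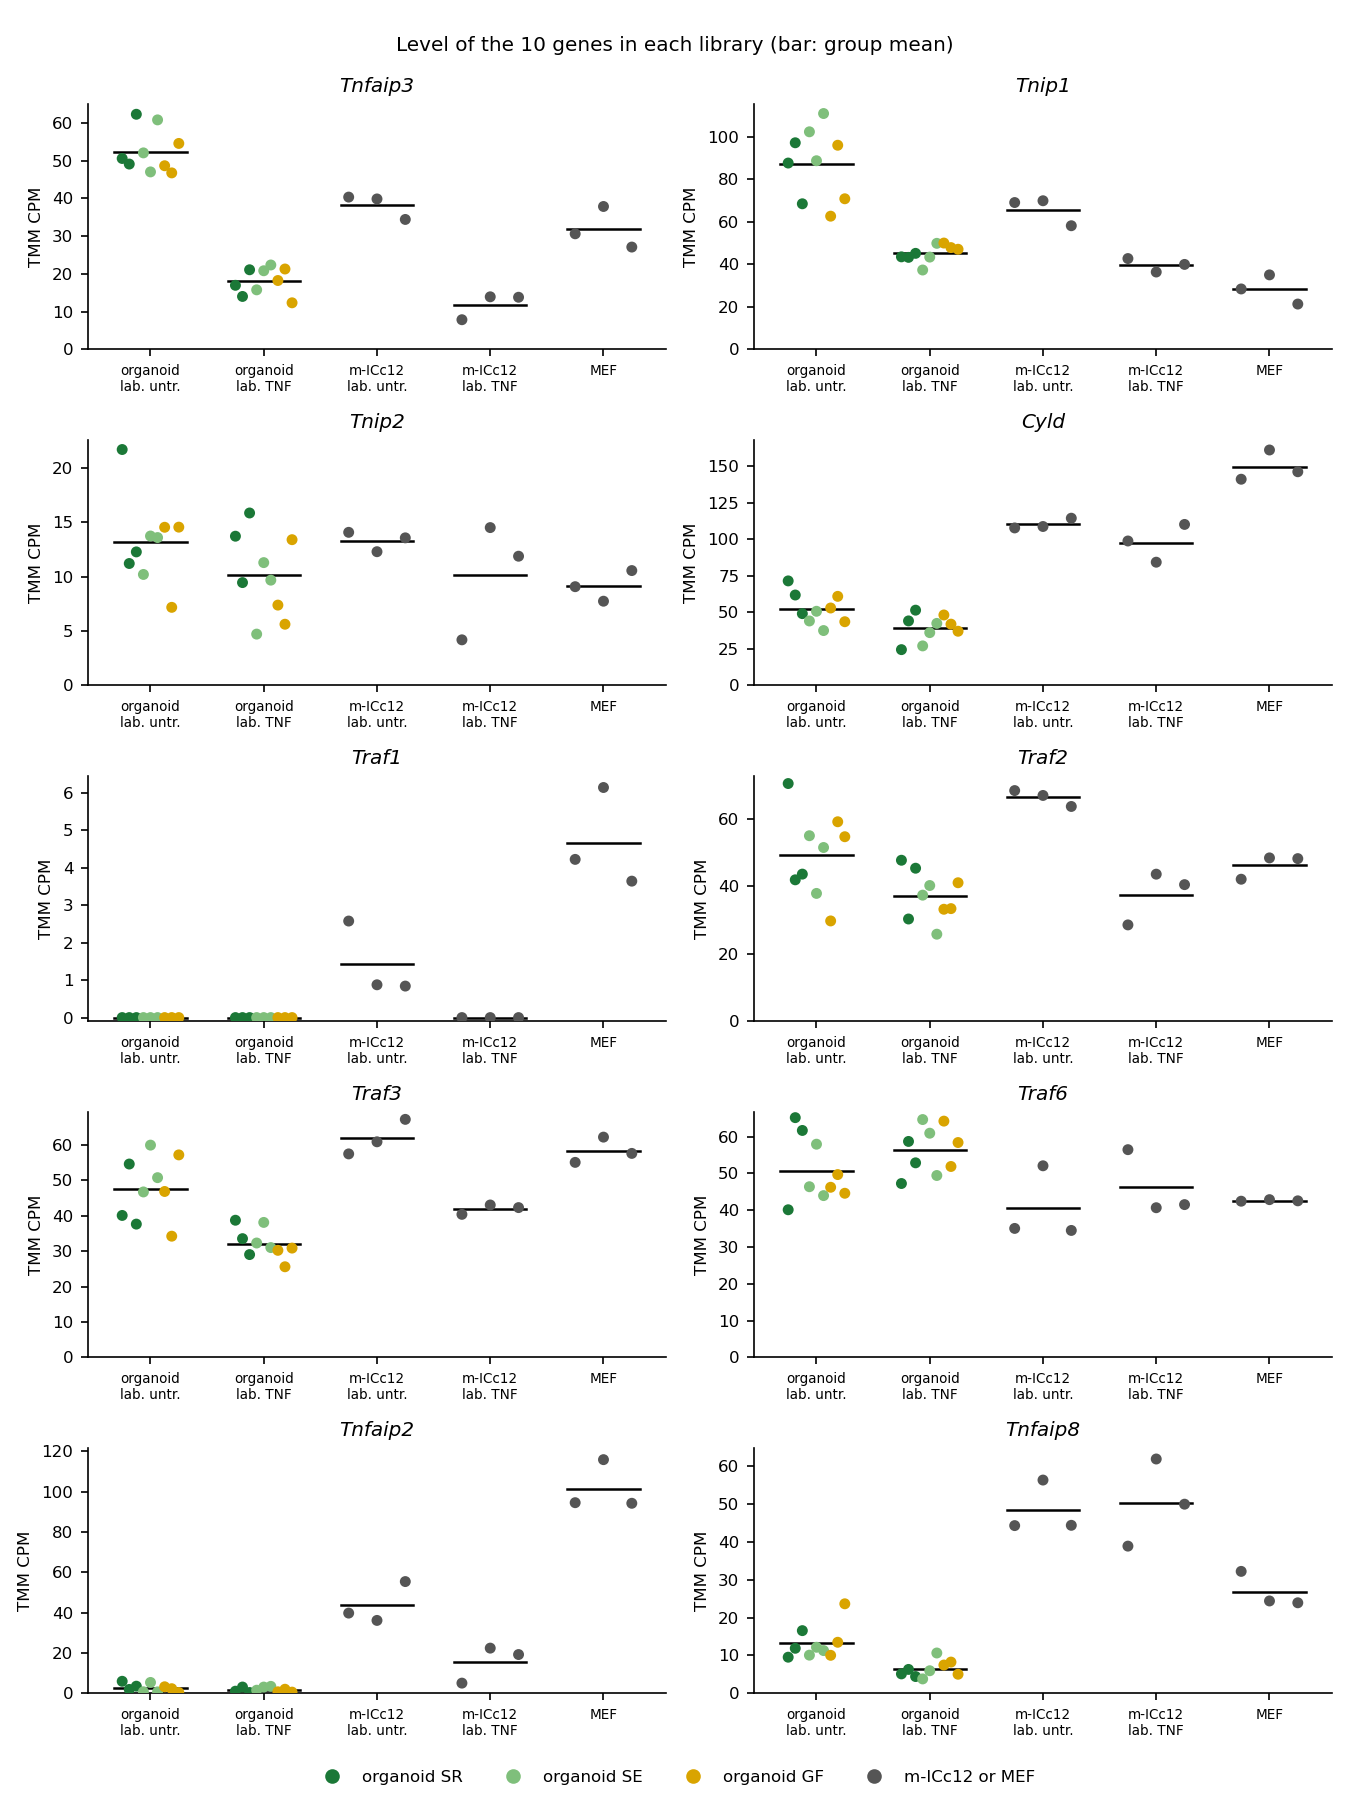
Level of each gene in every library, in TMM-normalised CPM on linear axes, by cell type and treatment label (lab. untr., labelled untreated; lab. TNF, labelled TNF-treated). Points are libraries, coloured by facility for organoids, and bars are group means. Tnfaip3 and Tnip1 show no overlap between the labels in organoids, Traf1 is at 0 in all of them, and Tnfaip2 is at most 5.96 CPM in organoids and at least 94.2 CPM in MEFs.

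The libraries of a culture come from the same mouse, so the organoid comparison was also fitted with the culture as a block. The same 4 genes were called, at log2 differences of 1.56 for Tnfaip3, 0.93 for Tnip1, 1.06 for Tnfaip8 and 0.56 for Traf3, while 3.28% of all genes were called in that fit. Cyld and Traf2 came nearer the threshold, with edgeR adjusted p of 0.0577 and 0.0680. Among the marker lists, 1 of 12 epithelial markers was called between the labels, the crypt gene Olfm4, at a log2 difference of 1.82 (edgeR adjusted p = 2.4e-04), and none of the fibroblast, leukocyte or endothelial markers tested was. The summed epithelial markers lay between 6232 and 7686 CPM in organoids labelled untreated and between 5822 and 6581 CPM in those labelled TNF-treated. The 6 fibroblast markers tested all had positive differences (0.26 to 1.45 on the log2 scale, median 0.42). All 10 summed to 16.0 to 47.9 CPM with the label untreated and 14.96 to 35.5 CPM with the label TNF-treated, with Thy1 at 0 in all libraries. The part of these markers in the differences of the 4 genes was not tested.

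**Figure D3:**
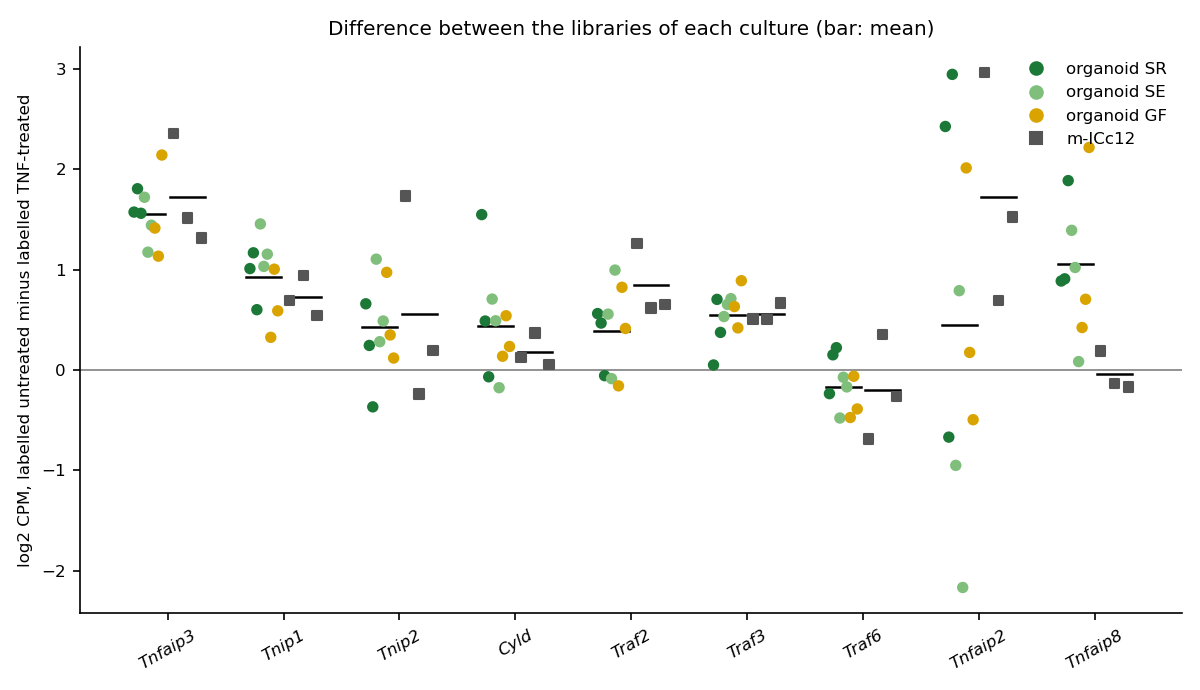
Log2 difference in CPM between the libraries of each culture, labelled untreated minus labelled TNF-treated, for 9 genes. Circles are organoid cultures coloured by facility, squares are m-ICc12 samples paired by their number only, and bars are means. All 9 organoid cultures lie above 0 for Tnfaip3, Tnip1, Traf3 and Tnfaip8. Traf1 is not drawn because it is listed at 0 in all organoid libraries.

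In m-ICc12 cells the same comparison rested on 3 samples with each label, which may not be separate cultures. Of the 10 genes 1 was called, Tnfaip3, which was 3.22-fold higher in libraries labelled untreated by the ratio of mean CPM. Over all 11861 genes tested 0.11% were called in either direction and 0.0927% were higher in libraries labelled untreated. The libraries labelled untreated held 40.3, 39.8 and 34.4 CPM of Tnfaip3 for cultures M1, M2 and M3, and those labelled TNF-treated 7.84, 13.9 and 13.8 CPM. The groups did not overlap, and the fitted log2 difference was 1.65 (SE 0.27, edgeR adjusted p = 0.0161).

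Another 5 genes did not overlap between the labels in m-ICc12 cells without being called, and 5.59% of all genes tested were separated in this direction. Tnip1 was at 69.0, 69.9 and 58.1 CPM against 42.7, 36.4 and 39.9 CPM (log2 difference 0.72, edgeR adjusted p = 0.396). Traf2 was at 68.4, 66.9 and 63.7 CPM against 28.6, 43.6 and 40.5 CPM (0.80, edgeR adjusted p = 0.362). Traf3 was at 57.5, 60.9 and 67.3 CPM against 40.4, 43.1 and 42.3 CPM (0.55, edgeR adjusted p = 0.870). In these genes the 3 libraries labelled untreated were all above those labelled TNF-treated. Their unadjusted edgeR p of 9.6e-04 to 0.0082 did not pass the adjustment over all 11861 genes tested. Tnfaip2 was at 39.8, 36.1 and 55.4 CPM against 5.05, 22.4 and 19.2 CPM, with the lowest value in the shallow M1 library (1.44, edgeR adjusted p = 0.396).

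Traf1 was the fifth of these genes. Its libraries labelled untreated held 88, 40 and 35 counts, or 2.58, 0.876 and 0.841 CPM, and it was listed at 0 in all 3 labelled TNF-treated. Against the highest level that a count of 0 allows in those libraries, 0.523 CPM in M1, its mean was at least 2.74-fold higher, and it was not called (edgeR adjusted p = 0.396). Traf1 passed the filter on low counts only through the libraries labelled untreated, so its direction in any test between these labels was fixed in advance.

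The remaining genes overlapped between the labels in m-ICc12 cells. Cyld lay between 108 and 114 CPM against 84.3 to 110 CPM (log2 difference 0.16, 95% interval −0.20 to 0.52), and Tnip2 between 12.3 and 14.1 CPM against 4.18 to 14.5 CPM (0.34, −0.50 to 1.18). Traf6 lay between 34.5 and 52.1 CPM against 40.7 to 56.5 CPM (−0.20, −0.68 to 0.28). Tnfaip8 lay between 44.3 and 56.3 CPM against 38.9 to 61.9 CPM (−0.07, −0.52 to 0.37).

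The m-ICc12 calls depended on few libraries. Without the libraries with high Lars2, which leaves 3 labelled untreated against 1 labelled TNF-treated whose spread is assumed to be that of the others, Tnfaip3 was at 1.48 and not called (edgeR adjusted p = 0.175). Without culture M2, Tnfaip2 was called as well (1.88, edgeR adjusted p = 9.2e-06), but the libraries labelled TNF-treated were then only the 2 with high Lars2. In that fit 32 genes were called higher and 61 lower, against 11 and 2 in the main fit. DESeq2 called 4 of the 10 genes, Tnfaip3, Traf1, Traf2 and Tnfaip2. The study's thresholds, a log2 change of 0.5 or more with p up to 0.05 before adjustment, were passed by the 6 genes without overlap and by 3.75% of all genes. The counts of 4 and 6 both include Traf1, whose direction was fixed in advance.

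Whether the difference between labels was itself different in m-ICc12 cells was tested as an interaction, in which 0.159% of 13183 genes were called. edgeR called none of the 10 genes and neither did DESeq2, 1 gene was under an unadjusted p of 0.05, and that gene also passed the study's thresholds, as 5.67% of all genes did. It was Tnfaip8, whose difference was lower in m-ICc12 cells by 1.12 on the log2 scale (95% interval −1.93 to −0.30, edgeR adjusted p = 0.525). For Tnfaip3 the interaction was 0.13 (95% interval −0.40 to 0.65), for Tnip1 −0.22 (−0.63 to 0.19), for Traf3 −0.01 (−0.46 to 0.44) and for Traf2 0.40 (−0.18 to 0.98). The fit gave no usable interval for Traf1, which was at 0 in 3 of the 4 groups.

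Levels between genes were compared per kilobase of exon. In organoids labelled untreated Tnip1 led at a mean of 24.6 CPM per kb, followed by Traf2 at 9.67, Tnfaip3 at 7.25, Traf3 at 6.48, Traf6 at 6.42, Tnip2 at 4.92, Cyld at 4.17, Tnfaip8 at 1.28 and Tnfaip2 at 0.540. Tnip1 also led in m-ICc12 cells labelled untreated, at 18.6 CPM per kb, with Traf2 next at 13.0. With the label TNF-treated Tnip1 still led in organoids (12.8) and m-ICc12 cells (11.2), but Tnfaip3 was only 7th in organoids at 2.502 and 9th in m-ICc12 cells at 1.64, and Traf6 was 3rd in organoids at 7.16 and Cyld 2nd in m-ICc12 cells at 7.77. MEFs had another order, with Tnfaip2 first at 20.4 CPM per kb and Cyld second at 11.9, ahead of Traf2 at 9.07 and Tnip1 at 7.98.

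Tnfaip2, Tnfaip8, Cyld and Traf1 were lower in organoids than in both m-ICc12 cells and MEFs, in libraries labelled untreated. In these libraries 6 of the 10 genes were called between organoids and m-ICc12 cells, where 60.9% of 12962 genes were called, and 6 between organoids and MEFs, where 67.2% of 13144 genes were. These shares of members are close to those of all genes. The counts of 6 include Traf1, which passed the filter on low counts only through the m-ICc12 or MEF libraries. The 4 lower genes stand beside 29.3% of all genes called lower in organoids than in m-ICc12 cells and 32.6% lower than in MEFs. With organoids labelled TNF-treated, 2 members were called higher and 6 lower than in MEFs, where 71.6% of all genes were called. Of all 13201 genes tested there, 4776 were called higher and 4678 lower. In that comparison too, Traf1 passed the filter on low counts only through the MEF libraries. The comparisons share their organoid libraries, and the organoid cultures come from 9 mice, while nothing states such separate origins for the other samples. Per the study's methods each cell type was grown in its own medium, and organoids in a gel matrix. Cell type and culture conditions cannot be told apart.

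Tnfaip2 averaged 2.69 ± 2.02 CPM (SD, n = 9) in organoids labelled untreated, with a highest value of 5.96. It was at 39.8, 36.1 and 55.4 CPM in m-ICc12 cells and at 94.5, 116 and 94.2 CPM in MEFs, so that none of the 3 groups overlapped. The mean was 16.3-fold higher in m-ICc12 cells (log2 difference −3.99, organoid minus m-ICc12, edgeR adjusted p = 1.2e-05) and 37.7-fold higher in MEFs (−5.21, edgeR adjusted p = 2.3e-07). With the label TNF-treated the ratios were 8.75-fold and 57.1-fold.

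Tnfaip8 averaged 13.2 ± 4.47 CPM (SD, n = 9) in organoids labelled untreated, and was at 44.3, 56.3 and 44.3 CPM in m-ICc12 cells and at 32.2, 24.4 and 23.9 CPM in MEFs. It was 3.67-fold higher in m-ICc12 cells than in organoids by mean CPM (log2 difference −1.85, edgeR adjusted p = 6.9e-06) and 2.04-fold higher in MEFs (−1.01, edgeR adjusted p = 0.0041). Cyld averaged 52.4 ± 10.7 CPM in the same organoids, against 108, 109 and 114 CPM in m-ICc12 cells (−1.04, edgeR adjusted p = 3.0e-05) and 141, 161 and 146 CPM in MEFs (−1.49, edgeR adjusted p = 3.7e-07). Neither gene overlapped between organoids and the other cell types. With the label TNF-treated, Tnfaip8 was 7.93-fold higher in m-ICc12 cells and 4.23-fold higher in MEFs, and Cyld 2.496-fold and 3.82-fold.

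Traf1 was at 4.23, 6.15 and 3.64 CPM in MEFs. Against the highest level a count of 0 allows in an organoid library labelled untreated, 0.174 CPM, the mean was at least 8.25-fold higher in m-ICc12 cells and at least 26.9-fold higher in MEFs, if the listed zeros are true. Traf1 was called in both fits, but it passed the filter on low counts only through the m-ICc12 or MEF libraries. The direction of these calls was therefore fixed in advance, and they add nothing to the listed values. With the label TNF-treated Traf1 was listed at 0 in both organoids and m-ICc12 cells, and the bound for MEFs over organoids was 17.2-fold.

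Tnfaip3 and Tnip1 were higher in organoids labelled untreated than in the other cell types, while Tnip2 was not called. Tnip1 was at 28.4, 35.0 and 21.3 CPM in MEFs, below all 9 organoid libraries labelled untreated (mean 87.2 ± 16.6 CPM, SD, log2 difference 1.65, edgeR adjusted p = 2.2e-06). By mean CPM Tnip1 was 3.09-fold higher than in MEFs in organoids labelled untreated and 1.60-fold higher in those labelled TNF-treated. Its difference from m-ICc12 cells was small (0.43, edgeR adjusted p = 0.0330), and that call was lost without any of the cultures Z909, Z911, Z913, Z918, M1, M2 or M3 (edgeR adjusted p = 0.0503 to 0.133), with DESeq2 (0.39, adjusted p = 0.0540) and with the label TNF-treated (0.20, edgeR adjusted p = 0.189). Tnfaip3 averaged 52.4 ± 5.72 CPM (SD, n = 9) in the organoids and was higher there than in m-ICc12 cells (0.48, edgeR adjusted p = 0.0064) or in MEFs, which held 30.6, 37.8 and 27.1 CPM (0.74, edgeR adjusted p = 3.4e-04). Over m-ICc12 cells, Tnfaip3 in organoids was 1.37-fold higher by mean CPM with the label untreated and 1.53-fold higher with the label TNF-treated. The groups overlapped with the latter label. Against MEFs the order of Tnfaip3 depended on the label. With organoid libraries labelled TNF-treated, Tnfaip3 was lower than in MEFs (−0.81, edgeR adjusted p = 0.0015), in a comparison in which 71.6% of all genes were called.

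Traf2, Traf3, Traf6 and Tnip2 were not called between organoids and either cell type in libraries labelled untreated. Log2 differences from m-ICc12 cells were −0.40 for Traf2 (95% interval −0.82 to 0.02), −0.35 for Traf3 (−0.70 to −0.0016), 0.35 for Traf6 (−0.04 to 0.73) and 0.02 for Tnip2 (−0.64 to 0.68). Leaving out 1 culture turned 3 of these into calls, Traf2 without Z908 (−0.48, edgeR adjusted p = 0.0292), Traf3 without Z912 (−0.40, edgeR adjusted p = 0.0460) and Traf6 without M2 (0.58, edgeR adjusted p = 0.0237). From MEFs the differences were 0.11 for Traf2 (−0.33 to 0.56), −0.27 for Traf3 (−0.62 to 0.08), 0.27 for Traf6 (−0.07 to 0.61) and 0.56 for Tnip2 (−0.13 to 1.24). With libraries labelled TNF-treated, Traf3 was called lower in organoids than in m-ICc12 cells (−0.38, edgeR adjusted p = 0.0302), where 66.8% of all genes were called. With that label Traf3 was also lower in organoids than in MEFs (−0.85, edgeR adjusted p = 2.1e-05) and Traf6 higher (0.41, edgeR adjusted p = 0.0058).

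Between m-ICc12 cells labelled untreated and MEFs, 6 of the 10 genes were called against 59.3% of 12830 genes tested, with 28.1% higher and 31.2% lower in m-ICc12 cells. Tnip1 (1.17, edgeR adjusted p = 1.6e-04), Tnfaip8 (0.80, edgeR adjusted p = 0.0029) and Traf2 (0.47, edgeR adjusted p = 0.0139) were higher in m-ICc12 cells. Tnfaip2 (−1.26, edgeR adjusted p = 6.8e-05), Cyld (−0.48, edgeR adjusted p = 0.0053) and Traf1 (−1.76, edgeR adjusted p = 0.0305) were lower there. Single libraries decided some of these calls: Cyld was not called without R2 (−0.37, edgeR adjusted p = 0.0604), Traf2 not without R1 (0.47, edgeR adjusted p = 0.0617), and Traf1 not without M2, M3, R1 or R2 (−1.77 to −1.45, edgeR adjusted p = 0.0764 to 0.151). With the label TNF-treated 1 gene was called higher and 5 lower in place of 3 and 3. Of all 12623 genes tested there, 3385 were called higher and 3638 lower. The 5 include Traf1, which was listed at 0 in all 3 m-ICc12 libraries with that label. It passed the filter on low counts only through the MEF libraries, so its direction was fixed in advance. With that label Tnip1 (0.49, edgeR adjusted p = 0.0821) and Traf2 (−0.29, edgeR adjusted p = 0.223) were not called, and Traf3 was lower (−0.48, edgeR adjusted p = 0.0218). With all 27 libraries in 1 fit 2 of the 6 calls were left, Tnip1 and Tnfaip8. For Tnfaip3 the difference was 0.22 with the label untreated (95% interval −0.17 to 0.61) and −1.40 with the label TNF-treated (edgeR adjusted p = 0.0014), where 55.6% of all genes were called.

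**Figure D4:**
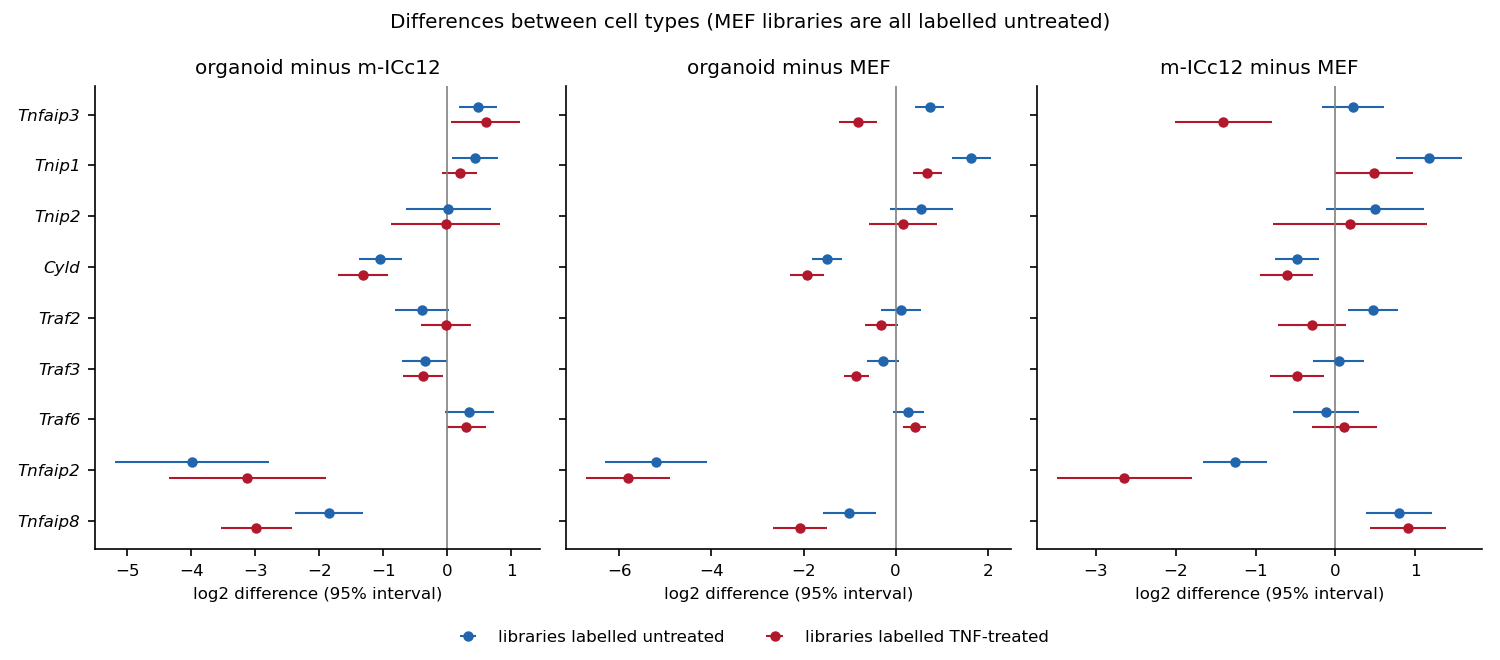
Log2 differences between cell types with 95% intervals from the edgeR fits, for 9 genes. Blue, organoid and m-ICc12 libraries labelled untreated; red, those labelled TNF-treated; MEF libraries are labelled untreated throughout. Tnfaip2, Tnfaip8 and Cyld lie below 0 in organoids under both labels, while Tnfaip3 lies above 0 against MEFs with the label untreated (0.74) and below it with the other (−0.81). Traf1 is not drawn because it is listed at 0 in organoids.

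The study set organoids of germ-free mice against those of SPF mice to ask whether the donors' microbiota leaves a trace. None of the 9 genes tested was called by edgeR between 3 GF and 6 SPF cultures labelled untreated, where 0.0325% of 12315 genes were called, none was under an unadjusted p of 0.05, and DESeq2 called none. Tnfaip3 averaged 49.96 ± 4.07 CPM in GF, 54.0 ± 7.22 in SR and 53.3 ± 6.97 in SE organoids (SD, n = 3 each), a log2 difference of −0.10 (95% interval −0.44 to 0.23). Tnip1 averaged 76.5 ± 17.4 CPM in GF, 84.4 ± 14.6 in SR and 101 ± 11.2 in SE organoids (−0.27, −0.63 to 0.08). The intervals were widest for the genes lowest in CPM, Tnfaip2 (−2.67 to 1.43), Tnip2 (−0.92 to 0.55) and Tnfaip8 (−0.30 to 1.10). Differences of these sizes could therefore not be detected here. Traf3 had a difference of −0.07 (−0.48 to 0.35), Traf2 of −0.07 (−0.55 to 0.42), Traf6 of −0.16 (−0.55 to 0.22) and Cyld of 0.0010 (−0.42 to 0.42).

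The difference between labels was also compared between GF and SPF organoids, and no gene (0%) of the 12640 tested was called by edgeR, nor any of the 9 by DESeq2 or at an unadjusted p under 0.05. For Tnfaip3 the difference between labels differed by 0.0040 between GF and SPF organoids on the log2 scale (95% interval −0.54 to 0.55). For Tnip1 it was smaller in GF organoids by an amount short of the threshold (−0.41, −0.85 to 0.02). With the culture as a block Tnip1 had an unadjusted p of 0.0429 in edgeR (−0.42), which did not pass the adjustment over all genes (adjusted p = 1).

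Around these 10 genes, the rest of the pathway was read from lists chosen for their roles, with earlier results of these data known. The counts called from these lists are therefore a description. In organoids 1.39% of all genes tested were called between the labels and 1.26% were called higher in libraries labelled untreated. Of 17 further A20 partners and NF-kB brakes, 3 were called higher in organoids labelled untreated and none lower. They were Nfkbia, the inhibitor that holds NF-kB in the cytoplasm (2.66, edgeR adjusted p = 6.4e-17), Bcl3, an atypical IkB protein (1.42, edgeR adjusted p = 8.6e-07), and Spata2, which links CYLD to the ubiquitin ligase LUBAC (0.61, edgeR adjusted p = 0.0102). With the culture as a block Nfkbib was called as well (0.51, edgeR adjusted p = 0.0415). Nfkbia lay between 148 and 227 CPM in organoids labelled untreated and between 23.6 and 36.4 CPM in those labelled TNF-treated. The median log2 difference of this list was 0.16.

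Of the 7 genes of the non-canonical pathway, 3 were called higher in organoids labelled untreated: Nfkb2, the precursor of p52 (1.79, edgeR adjusted p = 1.3e-11), its partner Relb (1.49, edgeR adjusted p = 2.9e-08) and the receptor gene Tnfrsf11a (0.80, edgeR adjusted p = 0.0026). Of the 20 genes of the TNF receptor complex, 2 were called, Tnf itself (3.97, edgeR adjusted p = 1.2e-04) and Birc3, which codes for cIAP2 (1.07, edgeR adjusted p = 3.5e-05). Tnf was at 5.34 to 21.2 CPM in organoids labelled untreated and at 0 to 2.17 CPM in those labelled TNF-treated. The other 18 genes of the complex were not called, and the list's median difference was 0.03. These counts stand beside the 1.26% of all genes tested that were called higher in libraries labelled untreated. Of 14 relatives of the members, 9 were tested and none was called (edgeR, median 0.14), while Tnfaip8l1 was called with the culture as a block (0.57, edgeR adjusted p = 0.0055).

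In m-ICc12 cells 2 of the 17 brakes were called, Nfkbia (2.13, edgeR adjusted p = 4.0e-04) and Nfkbie (2.54, edgeR adjusted p = 0.0161), and 2 of the 5 non-canonical genes tested, Relb (1.89, edgeR adjusted p = 0.0094) and Nfkb2 (1.09, edgeR adjusted p = 0.0161). No gene of the receptor complex or of the relatives was called by edgeR, and Tnf was listed at 0 in every m-ICc12 and MEF library. Of all genes tested in m-ICc12 cells, 0.11% were called in either direction and 0.0927% were higher in libraries labelled untreated.

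**Figure D5:**
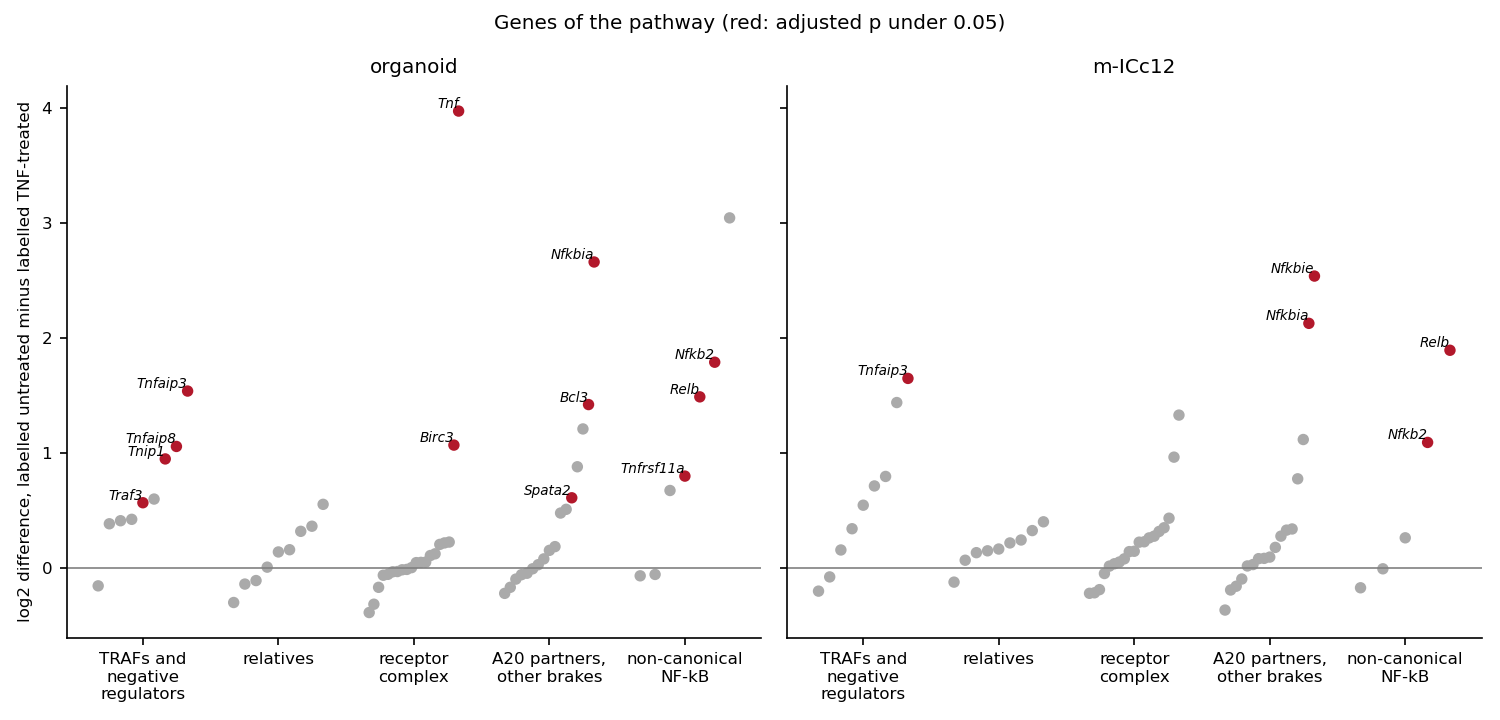
Log2 differences between labels (labelled untreated minus labelled TNF-treated) for the genes tested in each list, in organoids and in m-ICc12 cells. Red points with names passed an edgeR adjusted p of 0.05 and grey points did not. Nfkbia, Nfkb2, Relb and Tnfaip3 are red in both panels. Traf1 is not drawn.

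Over the 18 organoid libraries, the genes whose log2 CPM followed each called member most closely were listed as a description. These libraries share the label groups, so genes that differ between labels correlate with each other. Tnfaip3 was closest to B2m (Pearson's r = 0.953), Nfkbia (0.947) and H2-M2 (0.946), of which B2m and H2-M2 belong to the major histocompatibility complex class I system. Tnip1 was closest to Tapbp (0.948), Mvp (0.929) and Nfkbia (0.928), where Tapbp codes for tapasin, a chaperone of class I peptide loading. Traf3 was closest to Bcl3 (0.845), Wipi1 (0.808) and H2-M2 (0.807), and Tnfaip8 to Bcl2l1 (0.877), B2m (0.845) and Clca4b (0.832). Among the members, Tnfaip3 and Tnip1 had r = 0.886, Tnfaip3 and Tnfaip8 0.828, and Tnfaip3 and Traf6 −0.431.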

How the data were processed

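RNA of organoids, m-ICc12 cells and MEFs was enriched for poly-A, prepared with a TruSeq RNA kit, which the labels but not the study's methods call stranded, and sequenced. Per the study's methods, reads were adapter-trimmed with Trimmomatic, shortened at the 3′ end and aligned with STAR to GRCm38 (Ensembl annotation), and the submitters' processing notes name bcl2fastq 2.19, STAR 2.5.4b, featureCounts and edgeR. The methods and the notes give different STAR versions and counters, and neither states whether strand was used. The authors deposited raw counts per gene, 1 table per library, and these were used as deposited. Gene symbols were matched to Ensembl identifiers through GENCODE (22214 of 22524 named, all 10 members found).

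Counts were scaled by TMM, and CPM, log2 CPM (prior count 2) and tests were computed in R 4.3.3 with edgeR 4.0.16. A gene was tested if 50% or more of the libraries in any group compared reached 10 counts, by the quasi-likelihood F-test on those groups, with Benjamini-Hochberg adjustment at 0.05. Intervals are 95% intervals of the fit, and a detection limit is 3 counts. Alternatives were DESeq2 1.42.0, no filter beyond 1 count, the study's thresholds (p of at most 0.05 and a log2 change of at least 0.5), all 27 libraries in 1 fit, a culture block, a facility covariate, the other treatment label and leaving out each culture. Leaving out the libraries with over 1% of counts on Lars2 was added after the data were seen. No libraries had identical counts. Organoid libraries of 1 culture come from 1 mouse, and their deviations from the group means correlated at 0.0821 to 0.311 (mean 0.171), against −0.02 between cultures. The tests were tried on simulated counts with known changes.

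The members, lists and tests were chosen with earlier results of these data known. All 10 members were named in every comparison. From the other lists the genes called between labels were named, up to 4 a list with the smallest p, and for each called member the 3 genes of highest Pearson's r. Figures were drawn with matplotlib 3.10.9.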

Additional observations from a re-analysis of the deposited data

Results flagged for a closer look

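The level of Tnfaip8 in the organoid culture Z919 labelled untreated, 23.6 CPM, stood far from the other 8 cultures of its group, which lay between 9.53 and 16.5 CPM. The gap to the nearest culture was 0.503 of the whole range. It was 1 of 18 groups examined in this way, and chance alone sets apart about 1 group in 20. The Tnfaip8 call between labels was lost without this culture (log2 difference 0.87, edgeR adjusted p = 0.0808).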

How the results depend on the processing

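The organoid results were the most stable. The number of the 9 tested genes called between labels was 4 under every alternative run except leaving out Z910 or Z919, which gave 3 each. With the replicate block the same 4 genes were called (Tnfaip3 at 1.56). In m-ICc12 cells the count of 1 became 6 with the study's thresholds, 4 with DESeq2, 2 without the filter on low counts and 0 without the libraries high in Lars2, and ranged from 1 to 2 when a culture was left out. The counts of 6 and 4 include Traf1, whose direction between these labels was fixed in advance. The study's thresholds use unadjusted p-values, and 3.75% of all genes passed them there. With the replicate block it was 0 (Tnfaip3 at 1.69, edgeR adjusted p = 0.0882), and 6 genes in all were called by edgeR against 13 without it. The m-ICc12 numbers mark no shared source (correlations of −0.0066 to 0.0925), so this fit is given for completeness. Of the other pathway genes, the block in m-ICc12 cells left 1 of 2 brakes called (Nfkbia) and neither of the 2 non-canonical genes (Nfkbie, Nfkb2 and Relb each at edgeR adjusted p = 0.0669), and in the interaction it added Tnfrsf11a (−4.05, edgeR adjusted p = 0.0079). The block changed no other call of the 10 members. With all 27 libraries in 1 fit, the members called between m-ICc12 cells and MEFs fell from 6 to 2, the cause was not tested, and with the study's thresholds 1 member passed in the interaction of cell type and label. Libraries labelled TNF-treated in place of untreated turned 4 of the differences from MEFs that were called with at least 1 label. These were Tnfaip3 to −0.81 in organoids, and Tnfaip3 to −1.40, Traf2 to −0.29 and Traf3 to −0.48 in m-ICc12 cells. Over all alternatives, 59 uncalled values also changed sign. Over all comparisons, 972 of 1012 values of single genes kept their direction and side of the threshold or were uncalled in each fit, 12 gained and 24 lost a call. In M1 labelled TNF-treated a count of 0 allows up to 0.523 CPM.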
